A study of Mus musculus with 23 samples.

Results

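The genes described here are the collagen chains, laminins, matrix metalloproteinases and their inhibitors, and a set of other extracellular matrix genes, chosen by gene symbol in the array's annotation. They were the symbols that begin with Col and a digit, Lama, Lamb, Lamc, Timp and a digit, or Mmp, together with Nid1, Nid2, Fn1, Sparc, Dcn, Lum, Ogn, Bgn, Fmod, Mgp, Eln, Lox, Serpinh1 and Hspg2. There were 70 such genes among 8251 named genes, measured by 99 probe sets, and each gene is described by its probe set of highest mean signal. Fbn1 was not analysed here. Of the 70 genes, 39 had a mean log2 value above the 40th percentile of the array (a signal of 91.7) and were tested, and 31 were dimmer and were not. The study hybridised whole-hippocampus RNA from 23 mice to 1 array each, 14 mice aged 15 months and 9 aged 2 months, all males of the strain C57BL/6JNIA. Both ages were given training in the Morris water maze, in which a mouse finds a platform from memory, and were killed by cervical dislocation, and the labels give no other treatment or genotype. The values are MAS5 signals on a linear scale, and changes are given on a log2(signal + 16) scale as 15-month minus 2-month. The labels give no detail on meninges or choroid plexus in the dissection.

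The extracellular matrix of the brain is unlike that of other organs. Fibrillar collagens and the small leucine-rich proteoglycans that coat them are made mainly by fibroblasts of the meninges and of larger vessels, while type IV collagen, laminins and nidogens form the basement membrane around capillaries. Matrix metalloproteinases cut these proteins, and the tissue inhibitors of metalloproteinases, encoded by the Timp genes, block them. In bulk tissue, fewer cells of a type and less RNA per cell cannot be told apart.

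Median array signals lay between 154 and 188. The array from 15-month replicate 13 was unlike the rest, its 25th percentile being 53.4, against 30.2 to 41.8 elsewhere. Of 12 hippocampal neuron markers 10 were on the array and 8 were bright enough to be tested, among them Neurod2 and Neurod6. Their mean log2 value was 9.60 to 10.03 at 15 months and 9.74 to 10.05 at 2 months.

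No matrix gene passed the test between the ages. In the limma fit 0 of the 39 genes passed a false discovery rate of 0.05, against 0.376% of all 7453 probe sets tested (0.335% higher and 0.0403% lower at 15 months), and the lowest adjusted p was 0.211, that of Mmp17. At an unadjusted p under 0.05 there were 6 genes, 4 higher and 2 lower at 15 months, or 15.4% of the 39, against 12.4% of all probe sets (5.89% higher and 6.51% lower). The Mann-Whitney test also called 0, its lowest adjusted p being 0.239. The log2 differences ran from -0.33 (Timp2) to 0.54 (Mgp), 19 above 0 and 20 below where 45.0% of all probe sets were above 0, with a median of -0.01, against -0.02 over all probe sets. The signals of the ages overlapped for each of the 39 genes, and 0.0537% of all probe sets did not overlap. Without 15-month replicate 13, too, 0 genes passed.

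**Figure D1:**
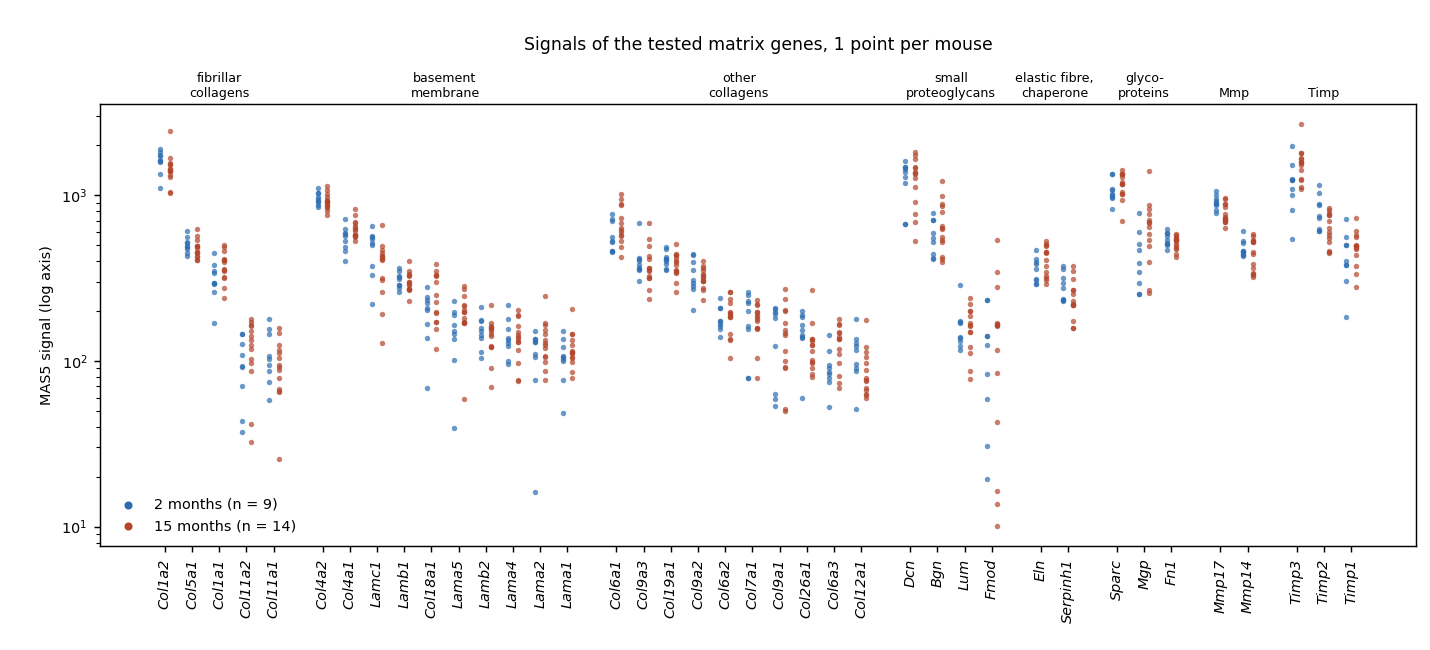
MAS5 signal (log axis) of the 39 tested matrix genes in each mouse, grouped by role, with 9 mice of 2 months in blue and 14 of 15 months in red, 1 point per mouse. The ages overlap for every gene shown, and Fmod has the widest range, from 10.1 to 534.7.

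**Figure D2:**
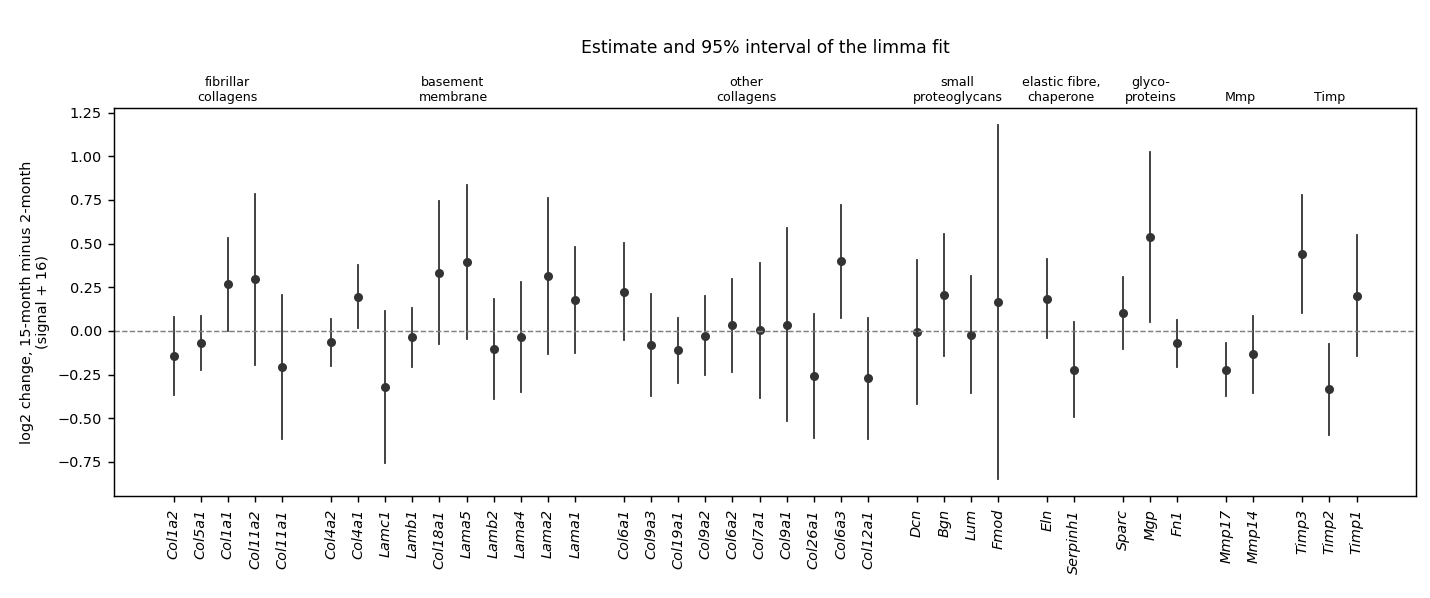
Log2 change of the 39 tested matrix genes, 15-month minus 2-month, as the estimate (point) and 95% interval (line) of the limma fit on log2(signal + 16). Changes run from -0.33 for Timp2 to 0.54 for Mgp, and none passed after adjustment over all 7453 probe sets.

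Fibrillar collagens form the cross-striated fibres of connective tissue. Of 8 such genes 5 were tested, 0 passed, and their median log2 difference was -0.07. The probe set that stood for Col1a1, the major chain of type I collagen, was at 238 to 502 at 15 months (median 374) and at 168 to 448 at 2 months (median 296). Its log2 difference was 0.27 ± 0.13 (SE; adjusted p = 0.407), and 12 of 14 old mice exceeded the 2-month mean. A second, dimmer probe set of Col1a1 differed the other way, with a log2 difference of -0.43 ± 0.27 (adjusted p = 0.521), so that the probe sets give no common direction for this gene. Col1a2, the partner chain, was at 1459 ± 331 (SD, n = 14) at 15 months and 1601 ± 247 (SD, n = 9) at 2 months. This probe set carries the suffix r, which marks probes that broke a selection rule of the array's design. The second Col1a2 probe set was far dimmer and spread from 19.3 to 407 at 15 months and from 29.1 to 246 at 2 months, with a log2 difference of -0.000755 (adjusted p = 0.999). Col11a2, a chain of the minor fibrillar type XI, was at 32.2 to 178 at 15 months and 37.3 to 146 at 2 months (log2 difference 0.30, adjusted p = 0.639). Without 2-month replicate 3 the differences of the brighter Col1a1 probe set and of Col11a2 were 0.17 and 0.18, and without 2-month replicate 6 that of Col11a2 was 0.195. Col2a1, Col3a1 and Col5a2 were not tested, with mean signals of 39.8 to 67.35.

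Type IV collagen is the network of the basement membrane, and its chains Col4a1 and Col4a2 join in one triple helix. The genes lie head to head on mouse chromosome 8. Their promoters are shown because their start regions overlap, while no relation between their signals across mice was detected. In RefSeq (GRCm38.p6) the start sites are 21 bases apart. The windows run from 250 bases before to 50 bases after each start, Col4a1 at chr8:11312777-11313076 on the minus strand and Col4a2 at chr8:11312555-11312854 on the plus strand. Each sequence is written 5′ to 3′ on its gene's strand, and capitals mark the 78 bases that the windows share, which are reverse complements of each other.
Col4a1: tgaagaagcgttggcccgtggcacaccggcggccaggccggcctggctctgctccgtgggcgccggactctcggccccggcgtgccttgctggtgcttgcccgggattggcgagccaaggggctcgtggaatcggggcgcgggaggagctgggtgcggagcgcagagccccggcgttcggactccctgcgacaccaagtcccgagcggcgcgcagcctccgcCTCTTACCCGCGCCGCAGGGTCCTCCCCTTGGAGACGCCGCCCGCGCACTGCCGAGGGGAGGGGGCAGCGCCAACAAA
Col4a2: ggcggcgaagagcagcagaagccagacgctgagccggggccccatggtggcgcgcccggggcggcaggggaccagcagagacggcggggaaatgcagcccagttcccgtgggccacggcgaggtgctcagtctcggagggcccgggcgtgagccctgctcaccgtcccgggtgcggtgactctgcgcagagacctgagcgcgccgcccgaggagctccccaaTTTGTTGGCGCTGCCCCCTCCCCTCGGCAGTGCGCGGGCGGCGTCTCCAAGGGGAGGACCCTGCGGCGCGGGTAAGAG
The windows are 74.0% and 73.7% G or C, against a median of 52.7% over the 32851 promoter windows of that length in the table. On either strand the Col4a1 window holds CCAAT 1 time and GGGCGG 1 time, and the Col4a2 window holds CCAAT 1 time and GGGCGG 3 times. TATAAA is in neither. CCAAT is in 37.4% of all windows, GGGCGG in 35.7% and TATAAA in 13.6%.

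Col4a1 was at 524 to 819 at 15 months (median 613) and at 399 to 711 at 2 months (median 566). It exceeded the 2-month mean in 13 of 14 old mice, and 3 of the 9 mice of 2 months lay below every mouse of 15 months. Its fold difference was 1.15 (95% interval 1.013 to 1.297), or 0.20 ± 0.09 on the log2 scale (adjusted p = 0.354). Col4a2 was at 755 to 1127 at 15 months (median 909) and at 845 to 1097 at 2 months (median 942), a log2 difference of -0.07 ± 0.06 (adjusted p = 0.717). With each age centred on its mean, no relation between the chains was detected across the 23 mice, with r = -0.07 (permutation p = 0.762) and rho = -0.05 (permutation p = 0.810), and r was -0.13 without the 2 mice farthest from the median of Col4a2. The adjusted values over 19 pairs of matrix genes were 0.852 and 0.810. The within-age SD of log2 signal was 0.21 for Col4a1 and 0.14 for Col4a2, below the median of 0.23 over all probe sets. So small a spread leaves little room for a relation to be seen.

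Laminins are the cross-shaped trimers of the basement membrane, each of an alpha, a beta and a gamma chain. Of the 19 basement membrane genes 10 were tested and 0 passed, 5 of them above 0 and 5 below, with a median log2 difference of 0.07. Lama5, the alpha chain of many adult basement membranes, was at 59.1 to 283 at 15 months and 39.4 to 230 at 2 months. It lay above the 2-month mean in 13 of 14 mice (log2 difference 0.39 ± 0.21, adjusted p = 0.458). Lama2, the alpha chain mutated in a congenital muscular dystrophy, was at 76.9 to 245 at 15 months and at 16.1 to 152 at 2 months, with 2-month replicate 1 the lowest and 4 old mice above every young one (log2 difference 0.31 ± 0.22, adjusted p = 0.571). Without 2-month replicate 1 the differences of Lama5 and Lama2 were 0.21 and 0.08. Col18a1, whose product releases the fragment endostatin, had means of 249.5 ± 84.2 in old and 195 ± 63.0 in young mice (adjusted p = 0.510), and 6 of 14 mice were above the highest 2-month mouse. Its log2 difference of 0.33 was 0.18 without 2-month replicate 3. The 9 untested genes of this group, among them Nid1, Nid2 and the perlecan gene Hspg2, had mean signals of 11.03 to 86.5.

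Of 16 other collagen genes 10 were tested and 0 passed. Type VI collagen, a beaded microfibril built of 3 chains, gave the largest difference among them. Col6a3 was at 68.1 to 178 at 15 months (median 135) and at 52.7 to 143 at 2 months (median 85.7). Of the 14 mice of 15 months 5 lay above the highest 2-month mouse, and the log2 difference was 0.40 ± 0.16 (adjusted p = 0.289). Its partner chains differed less, Col6a1 by 0.22 ± 0.13 (adjusted p = 0.510) and Col6a2 by 0.03 ± 0.13 (adjusted p = 0.938), a direction that turned in 6 of the other settings. Col12a1, a collagen that sits on the surface of fibrils, differed by -0.27 ± 0.17 (adjusted p = 0.524). Col9a1 and Lama2 were among the genes that varied most between mice of one age, with a within-age SD of 0.69 for Col9a1 and 0.55 for Lama2 on the log2 scale.

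Of the 16 genes of matrix turnover, the Timp and Mmp groups joined, 5 were tested and 0 passed, and 3 of the 5 had an unadjusted p under 0.05, against 12.4% of all probe sets. So small a group was not tested as one. Timp3, the inhibitor that stays bound to the matrix, was at 1084 to 2674 at 15 months (median 1564) and at 540 to 1984 at 2 months (median 1232). It exceeded the 2-month mean in 12 of 14 old mice, while 3 of 9 young mice lay below every old one. Its fold difference was 1.36 (95% interval 1.07 to 1.71), or 0.44 ± 0.16 on the log2 scale (adjusted p = 0.268). Timp2, which both inhibits metalloproteinases and helps to activate one of them, differed the other way. It was at 448 to 830 at 15 months (median 617) and at 607 to 1143 at 2 months (median 741), with 7 of 14 old mice below every young one. Its log2 difference was -0.33 ± 0.13 (adjusted p = 0.274). Timp1, the inducible member, had means of 487 ± 114 in old and 435 ± 155 in young mice (adjusted p = 0.657), and its log2 difference of 0.20 became -0.04 when its probe sets were averaged and 0.07 without 2-month replicate 5.

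Only 2 of 13 metalloproteinase genes were bright enough to be tested, both membrane-anchored enzymes. Mmp17 was at 633 to 960 at 15 months (median 730) and at 777 to 1060 at 2 months (median 893). Of the 14 old mice 9 lay below every young mouse and 2 were above the 2-month mean, and the log2 difference was -0.22 ± 0.07 (adjusted p = 0.211). Mmp14, a collagenase of the cell surface that activates Mmp2, had means of 443 ± 97.4 in old and 480 ± 58.4 in young mice (adjusted p = 0.641). The other 11, with the secreted gelatinases Mmp2 and Mmp9 among them, had mean signals of 5.65 to 63.5 and were not tested.

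**Figure D3:**
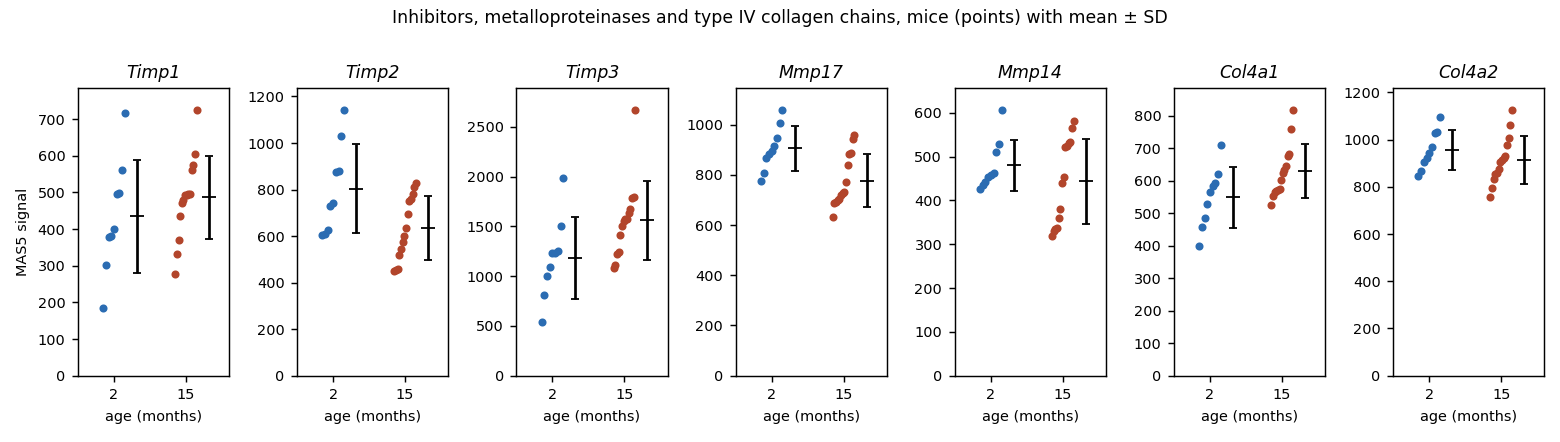
MAS5 signal of Timp1, Timp2, Timp3, Mmp17, Mmp14, Col4a1 and Col4a2 in each mouse (points; blue 2 months, n = 9; red 15 months, n = 14), with the mean ± SD beside each group and axes from 0. For Mmp17, 9 of 14 old mice lie below every young mouse, and for Timp3, 3 of 9 young mice lie below every old one.

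Of the matrix glycoproteins and the genes of elastic fibres and collagen folding, 5 of 6 were tested and 0 passed. Mgp, an inhibitor of calcification made by vessel walls and fibroblasts, was at 256 to 1397 at 15 months (median 656) and at 252 to 782 at 2 months (median 389). Of the old mice 3 lay above the highest young one, and 2 of 9 young mice lay below every old one. Its fold difference was 1.45 (95% interval 1.04 to 2.04), or 0.54 ± 0.24 on the log2 scale (adjusted p = 0.354). Its probe set carries the suffix s, which marks probes that can be shared between related transcripts. Sparc, a collagen-binding protein of endothelium and astrocytes, had means of 1151 ± 196 in old and 1067 ± 170 in young mice (adjusted p = 0.716). Fn1, fibronectin, was at 422 to 583 at 15 months and 465.9 to 626 at 2 months (log2 difference -0.07 ± 0.07, adjusted p = 0.695). Eln, elastin, was at 410 ± 83.3 and 356 ± 61.9 (adjusted p = 0.510). Serpinh1, the collagen chaperone of the endoplasmic reticulum, was at 243 ± 65.1 and 282 ± 55.5 (adjusted p = 0.510), in each case with the 15-month value first.

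The small leucine-rich proteoglycans bind collagen fibrils and set their thickness. Of 5 such genes 4 were tested and 0 passed, with a median log2 difference of 0.08. Dcn, decorin, was at 526.0 to 1826 at 15 months (median 1354) and 665 to 1609 at 2 months (median 1381), with a log2 difference of -0.01 ± 0.20 (adjusted p = 0.991). Bgn, biglycan, was at 393 to 1217 at 15 months (median 628) and 408 to 780 at 2 months (median 551), with 5 of 14 old mice above every young one (log2 difference 0.21 ± 0.17, adjusted p = 0.653). Without 15-month replicate 7 this was 0.14. A second Bgn probe set had a log2 difference of 0.34 ± 0.13 (adjusted p = 0.282). Fmod, fibromodulin, spanned the widest range of the 39 tested genes, 52.9-fold, from 10.1 to 535 at 15 months and from 19.5 to 234 at 2 months, so that its interval on the fold scale ran from 0.557 to 2.26. The lowest Fmod signals, 10.1 in 15-month replicate 4 and 19.5 in 2-month replicate 9, lay below the 25th percentiles of those arrays, 30.5 and 38.1. The range and spread of Fmod therefore rest in part on dim values. Lum, lumican, had means of 159.6 ± 47.7 in old and 161 ± 51.4 in young mice (adjusted p = 0.969). The directions of Dcn, Lum and Fmod turned in some of the other settings.

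Mice of the same age differed widely in these genes. The within-age SD of log2 signal was above the median of all 7453 probe sets, 0.23, for 32 of the 39 genes, and above their 90th percentile, 0.41, for 15. The 39 genes were not matched to all probe sets on signal level, and its part was not tested. The largest values were 1.24 for Fmod, 0.69 for Col9a1, 0.60 for Mgp, 0.60 for Col11a2 and 0.55 for Lama2, and that of Fn1 was 0.14.

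Some of these genes followed markers of the meninges across mice, and most did not pass. The tested markers included none of the 39 tested matrix genes. They did include Pcolce (meninges) and Vtn (mural cells), which also belong to the genes that build, bind or remodel the matrix, compared between the ages below. The mean log2 value of 9 meninges markers (of 24 in the list, 20 of them on the array), among them Igf2, Slc6a13 and Igfbp2, was 8.14 to 9.40 at 15 months and 8.12 to 9.44 at 2 months. It differed by 0.17 between the ages, less than its SD of 0.39 and 0.40 within them (exact permutation p = 0.310, two-sided; adjusted p = 0.611 over 5 lists). With each age centred on its mean, 11 of the 39 matrix genes correlated with it at a false discovery rate of 0.05 over 156 relations, all positively, and 5 of these did so by rank as well. The 5 were Mgp, Bgn, Fmod, Lama4 and Eln. Relations with the marker means were computed for matrix genes only. Whether 11 of 39 exceeds the share among all tested probe sets was therefore not tested.

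Mgp followed the meninges mean with r = 0.88 and rho = 0.86 over 23 mice (permutation test, adjusted p = 0.00052 and 0.00104), and r was 0.84 without the 2 mice farthest from the median, 15-month replicate 7 and 2-month replicate 2. Within the ages its r was 0.89 at 15 months and 0.87 at 2 months. Bgn had r = 0.87 and rho = 0.87 (permutation test, adjusted p = 0.00052 and 0.00078), and 0.86 without those mice. Fmod had r = 0.79 and rho = 0.77 (permutation test, adjusted p = 0.000624 and 0.00156), and 0.77 without them. Unadjusted p was 1e-05, the smallest the permutations can give, for the r of Mgp and Bgn, and 2e-05 for that of Fmod. The mouse 15-month replicate 7, with the highest meninges mean of its age, also had the highest Mgp, Bgn, Fmod and Dcn signals of any mouse of that age. Lama4, an alpha chain of vessel laminins, had r = 0.72 and rho = 0.72 (permutation test, adjusted p = 0.00255 and 0.00669), and Eln r = 0.71 and rho = 0.72 (permutation test, adjusted p = 0.00255 and 0.00721). Without the 2 mice these were 0.70 and 0.72.

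The proteoglycans did not all move in this way. Dcn had r = 0.30 with the meninges mean (permutation p = 0.172), and Lum had r = 0.68 (permutation test, adjusted p = 0.00756), which fell to 0.56 without the 2 mice and did not pass by rank (rho = 0.56, adjusted p = 0.0621). The r of Timp3 fell from 0.59 to 0.32 and that of Col9a3 from 0.59 to 0.28 without the 2 mice. Leaving out the mice farthest from the median also narrows the range of the marker mean, and r was not tested again without them. With the meninges mean as a covariate the median log2 difference of the 39 genes was -0.04 in place of -0.01. The age differences of Mgp, Bgn, Fmod, Serpinh1 and Lum were each lower. Some others were higher, such as that of Col1a2 (-0.11 in place of -0.14). That of Mgp was 0.30 in place of 0.54 (adjusted p = 0.321), that of Bgn 0.04 in place of 0.21, and that of Fmod -0.27 in place of 0.17. Those of Serpinh1 and Lum lay further below 0, at -0.30 in place of -0.22 and at -0.14 in place of -0.02. The part of the meninges markers in these differences was not tested further.

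**Figure D4:**
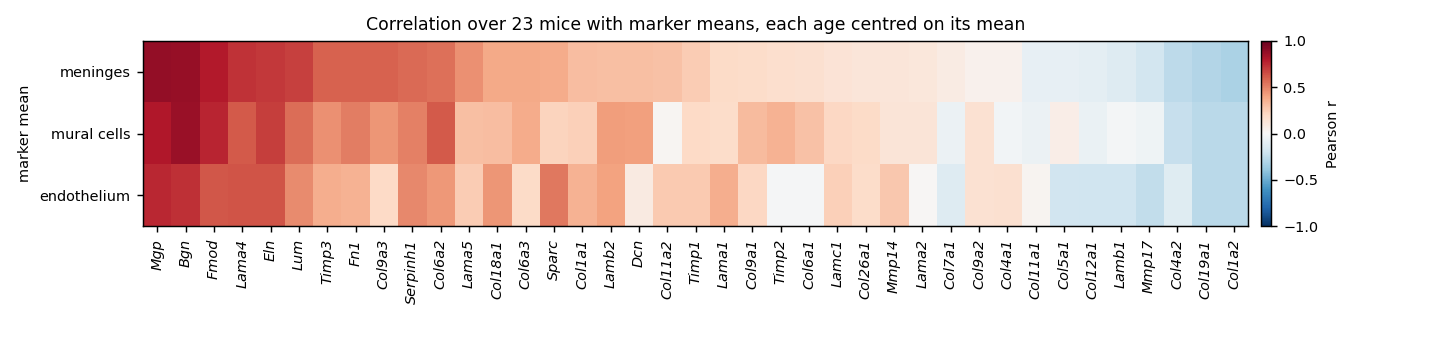
Pearson r over 23 mice of each tested matrix gene (columns, ordered by r with the meninges mean) with the mean of the meninges, mural cell and endothelium markers (rows), each age centred on its mean. Mgp, Bgn and Fmod have the highest r with the meninges mean, 0.88, 0.87 and 0.79.

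The markers of mural cells, the smooth muscle cells and pericytes of vessels, and of endothelium also had their highest r values with Mgp and Bgn. Mgp had r = 0.80 and rho = 0.68, and Bgn r = 0.86 and rho = 0.87, with the mean of 11 mural cell markers (of 16, 15 of them on the array), and r was 0.75 and 0.73 (rho 0.75 for both) with the mean of 18 endothelium markers (of 28, 20 on the array). The permutation-adjusted p of these 4 relations was between 0.00052 and 0.00255 for r. Without the 2 farthest mice r was 0.67 and 0.81 for mural cells and 0.65 and 0.66 for endothelium. By r 7 of the 39 genes passed with the mural cell mean and 5 with the endothelium mean, 4 and 3 of them by rank as well. Fmod, Eln and Lama4 passed by r with both, at 0.76, 0.69 and 0.61 for mural cells and 0.62, 0.63 and 0.63 for endothelium. The marker means themselves are not separate measures, since the meninges mean correlated with that of mural cells at r = 0.88 and with that of endothelium at r = 0.78. Both vessel means differed by less than their spread between the ages (mural cells -0.01, exact permutation p = 0.936; endothelium 0.01, exact permutation p = 0.807), and ranges were 7.61 to 8.35 and 7.76 to 8.37 for mural cells and 8.08 to 8.66 and 8.23 to 8.61 for endothelium, at 15 and 2 months. In the limma test 1 of the 18 endothelium markers passed, Slc2a1, and 0 of the 11 mural cell markers, against 0.376% of all probe sets. Of the basement membrane collagens, Col4a1 had r = 0.16 with the endothelium mean (permutation test, adjusted p = 0.704), Col4a2 r = -0.12 (permutation test, adjusted p = 0.779) and Col18a1 r = 0.44 (unadjusted permutation p = 0.0384, which did not pass after adjustment), which was 0.18 without the 2 farthest mice. Sparc had r = 0.53, which did not pass (permutation test, adjusted p = 0.0752).

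The choroid plexus marker mean was split at its largest gap into a lower and an upper group of mice. Whether these are separate groups was not tested, and a correlation over all mice mixes them. Relations with the choroid plexus mean were among the 156. By r 6 of the 39 genes passed, and 0 passed by r and rank together. The highest r was that of Col9a3, 0.78, which was 0.54 without the 2 farthest mice. The choroid plexus mean correlated with the meninges mean at r = 0.75, and its part in the meninges relations was not tested. The mean of 9 markers, Ttr among them (of 23, 14 on the array), was at or below 8.38 in 18 mice and at 8.89 or above in 5, of which 4 were of 15 months and 1 of 2 months. The values of these 5 mice also had a gap, from 8.99 to 9.49. Among the 18 mice r with this mean ran from -0.53 for Col19a1 to 0.66 for Timp1 and 0.58 for Serpinh1, and was 0.05 for Col9a3, 0.16 for Mgp and 0.10 for Timp3, given as a description with no test. This was a choice of mice made after the values were seen. Over all mice the mean differed by 0.25 between the ages (exact permutation p = 0.367). With it as a covariate the log2 difference of Timp3 was 0.34 in place of 0.44, and that of Mgp 0.39 in place of 0.54.

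For type I collagen and Bgn the relation depended on the probe set. The brighter Col1a2 probe set had r = -0.32 with the meninges mean (permutation p = 0.146), whereas the dimmer one had r = 0.82 and rho = 0.87 (permutation test, adjusted p = 0.00022 for both over 22 relations), and r = 0.82 without the 2 farthest mice. The dimmer Col1a1 probe set had r = 0.68 and rho = 0.73 (permutation test, adjusted p = 0.00136 and 0.00106), and 0.80 without those mice. The dimmer probe sets of the 2 chains correlated with each other at r = 0.70 and rho = 0.65 (permutation test, adjusted p = 0.00128 and 0.00528), and at 0.59 without 15-month replicates 1 and 6. The brighter ones had r = 0.11 (permutation p = 0.610). The brighter and dimmer probe sets of Col1a2 correlated at r = -0.48 and those of Col1a1 at r = 0.35. The lowest signals of the dimmer Col1a2 probe set were 19.3 in 15-month replicate 1 and 29.1 in 2-month replicate 6. That of the dimmer Col1a1 probe set was 19.9 in 15-month replicate 6. They lay below the 25th percentiles of those arrays, 35.2, 41.8 and 37.1. The relations of the dimmer probe sets therefore rest in part on dim values. The second Bgn probe set, whose suffix f marks probes shared by a sequence family, had r = 0.36 with the meninges mean (permutation test, adjusted p = 0.227), against 0.87 for the brighter one. The second probe sets were looked at after the other values had been seen.

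**Figure D5:**
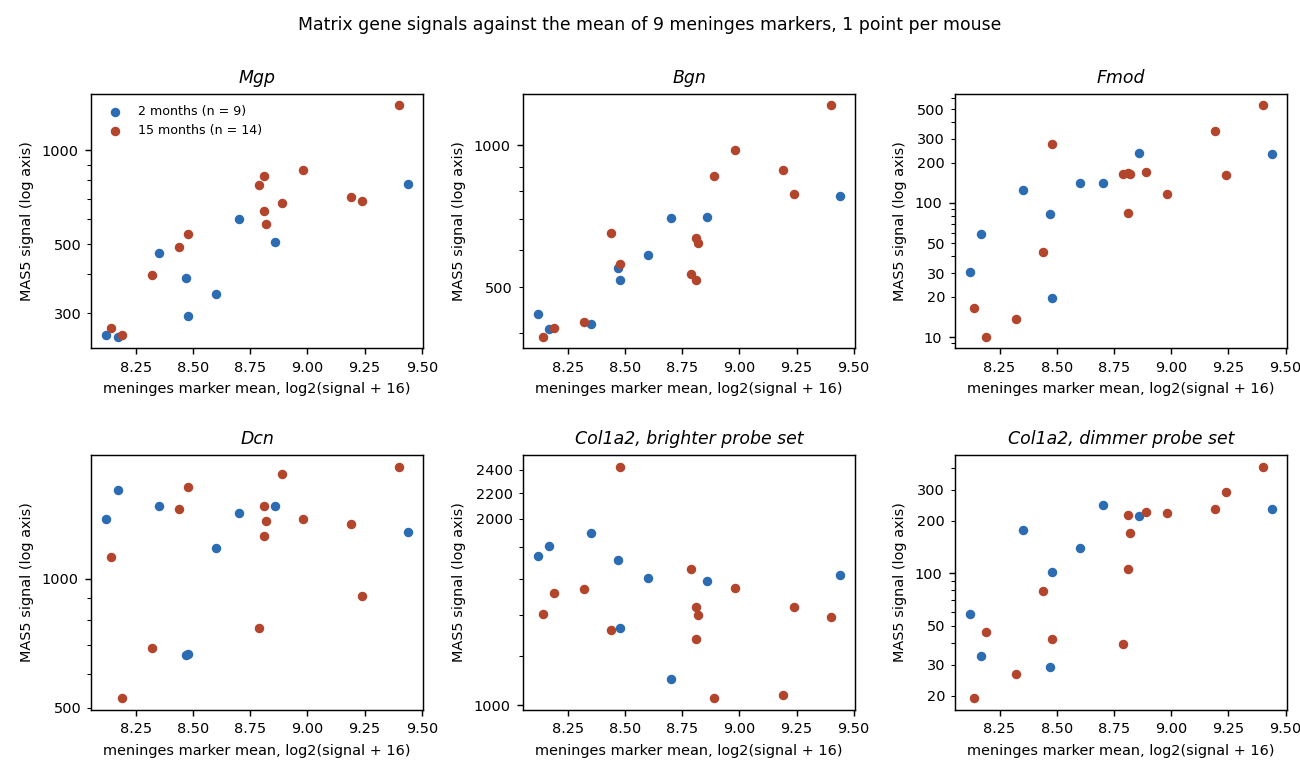
MAS5 signal (log axis) of Mgp, Bgn, Fmod, Dcn and the 2 probe sets of Col1a2 in each mouse against the mean log2(signal + 16) of 9 meninges markers (blue 2 months, n = 9; red 15 months, n = 14). Mgp, Bgn, Fmod and the dimmer Col1a2 probe set rise with the marker mean at both ages (r = 0.88, 0.87, 0.79 and 0.82 with ages centred), while Dcn (0.30) and the brighter Col1a2 probe set (-0.32) do not follow it.

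Of the genes that followed the meninges mean, Bgn and Fmod had a promoter in the RefSeq table, as had 46 of the 70 matrix genes, and they are shown because these genes varied together across mice (r = 0.73). The windows (GRCm38.p6, 250 bases before to 50 after the start, plus strand, 5′ to 3′) are chrX:73483351-73483650 for Bgn and chr1:134037004-134037303 for Fmod. Capitals mark matches on either strand to the same 3 motifs.
Bgn: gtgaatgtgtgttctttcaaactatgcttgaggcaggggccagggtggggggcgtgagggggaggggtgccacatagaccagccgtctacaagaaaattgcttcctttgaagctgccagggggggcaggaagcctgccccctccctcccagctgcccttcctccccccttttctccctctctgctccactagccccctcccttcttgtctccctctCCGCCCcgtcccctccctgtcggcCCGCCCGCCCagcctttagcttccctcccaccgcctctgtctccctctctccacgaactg
Fmod: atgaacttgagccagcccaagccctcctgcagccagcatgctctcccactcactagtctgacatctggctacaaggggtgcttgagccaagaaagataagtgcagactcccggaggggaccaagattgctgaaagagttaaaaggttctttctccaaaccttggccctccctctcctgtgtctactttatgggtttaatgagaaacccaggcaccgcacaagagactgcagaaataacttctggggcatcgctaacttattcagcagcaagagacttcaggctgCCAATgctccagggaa
The Bgn window is 63.7% G or C and holds GGGCGG 3 times, in part overlapping, and the Fmod window is 51.0% G or C and holds CCAAT 1 time. A match in these windows is a description of the letters.

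Among 19 pairs of matrix genes listed as chains of a trimer, binding partners, chaperone and client, or genes of the same cells, no correlation passed after adjustment, and 3 had an unadjusted permutation p under 0.05. The highest was that of Mgp and Dcn (r = 0.46, permutation p = 0.0325, adjusted p = 0.278; rho = 0.38, permutation p = 0.0846). Next came Dcn and Lum (r = 0.45, permutation p = 0.0405), which fell to 0.07 without 15-month replicates 4 and 6, then Dcn and Bgn (r = 0.44, permutation p = 0.0445) and Col6a1 and Col6a2 (r = 0.41, permutation p = 0.0671). Serpinh1 and Col4a1 had r = 0.36 (permutation p = 0.0877). The lowest r was that of Lama5 and Lamc1 (r = -0.36, permutation p = 0.0789, adjusted p = 0.278). Next lowest were Col4a1 and Lamc1 (r = -0.27, permutation p = 0.21), with r = -0.73 without 15-month replicates 1 and 5. Over all 741 pairs of the 39 genes the median r was 0.07, and the highest were those of Mgp with Fmod (0.85), Lama4 with Fmod (0.83) and Mgp with Bgn (0.81), given as a description.

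Genes that build, bind or remodel the matrix were compared between the ages in the same fit. Of 118 such genes, among them integrins, lysyl hydroxylases, syndecans and plasminogen activators, 84 were on the array and 51 were tested. None passed, the lowest adjusted p being 0.268, and 9.80% were at an unadjusted p under 0.05, 3 higher and 2 lower, below the 12.4% of all probe sets, with a median log2 difference of 0.02. These 5 were Sparcl1 (0.14), a relative of Sparc made by astrocytes, the syndecan gene Sdc4 (0.25) and the plasminogen activator gene Plat (0.28), and below 0 the collagen hydroxylase genes Plod3 (-0.21) and P4ha1 (-0.24). They were chosen after their values were seen.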

How the data were processed

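Hippocampal RNA carried a biotin label on 1-colour Affymetrix arrays, per the labels. The table holds linear intensities, deposited by the authors and computed by MAS5 (the submitters' processing notes name it), its version and settings being not given in the sources used here. Each array's trimmed mean was 500.3 to 1 decimal, so no further normalisation was applied. Detection calls were not used. No 2 arrays shared more than 44 of 12488 values. Replicate numbers only name the mice of an age, and no batch was given.

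GEO's platform annotation gave 1 symbol for 10833 of the 12422 probe sets left after controls, several for 396 and none for 1193. Probe sets above the 40th percentile of mean log2(signal + 16), 7453 in all, were tested with limma 3.58.1 in R 4.3.3 (lmFit, eBayes with an intensity trend and robust estimation) as a two-sided test, and p was adjusted by Benjamini-Hochberg over all of them. Fold intervals are at 95%. Correlations used 100000 permutations of the mice within ages, and marker means were compared with exact permutation tests over all 817190 regroupings (numpy 2.4.6, scipy 1.17.1, pandas 2.3.3, Python 3.11.15; figures with matplotlib 3.10.9). The limma fit and the correlation test were tested on simulated data.

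The members, gene lists, pairs and alternatives were chosen with earlier results of these data known. Genes named are those past the threshold, the 3 of lowest p in each role group, the 5 brightest, the 5 of largest within-age SD and the members of the 5 pairs of highest r. Lama4, Col9a3 and the gene pairs described outside the fixed pairs were chosen after their values were seen. Alternatives were the pseudocount, the filter, quantile normalisation, the limma settings, a rank test, averaging of probe sets, 4 covariates and leaving out arrays.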

Additional observations from a re-analysis of the deposited data

Results flagged for a closer look

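Among the 9 mice of 2 months, 3 of the 39 tested matrix genes had 1 mouse far from the others. Chance gives about 1 in 20 groups, so that 3 of 39 is close to chance, and the share among all probe sets was not tested. The 39 checks covered the 2-month mice only. The 15-month mice were not checked, although Col1a2 was at 2426.5 in 15-month replicate 13, against 1026.3 to 1661.0 in the others of that age. In 2-month replicate 2 Col9a3, a chain of the cartilage-type collagen IX, was at 680.0, against 301.8 to 414.6 in the other 8, and Lum was at 285.7, against 116.9 to 173.0. This mouse also had the highest meninges marker mean of all mice, 9.44, and a choroid plexus marker mean of 9.49, and the part of either was not tested. Col9a3 and Lum also correlated across mice at r = 0.69, so their high values in this mouse are not separate findings. In 2-month replicate 3 Col26a1 was at 59.7, against 137.2 to 200.2 in the others.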

How the results depend on the processing

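No matrix gene passed in any of 37 other settings, with the lowest adjusted p of any of them between 0.140 and 0.353. Their median log2 difference ran from -0.0537 to 0.0474. Leaving out 15-month replicate 13 entered these settings both as the array of lowest median correlation and among the mice left out 1 at a time, which is the same fit. The spread of the median between the 15-month mice alone was 0.115, a measure unlike a difference between the ages. The count over all probe sets was 25 higher and 3 lower; the lower count was 6 with the 60th-percentile filter, 8 with the Mann-Whitney test and 5 with the meninges or the endothelium covariate, and with the 25th percentile covariate 40 were higher and 21 lower. Leaving out 1 mouse gave 18 to 32 higher and 2 to 7 lower, with 7 without 15-month replicate 3 and 5 without 9, 10 or 12. Of 988 values of 27 named genes under these settings 37 changed sign, in 7 genes, none of them past the threshold in any setting. These were Lum with quantile normalisation (0.0035) and the 25th percentile covariate (0.0096), Timp1 (-0.041) and Col1a1 (-0.0825) with the mean of probe sets, the log2 change of Fmod (-0.0853) and the log2 change of Col6a2 (-0.0163) with the choroid plexus covariate, Fmod (-0.27), the log2 change of Col9a1 (-0.0192) and Col6a2 (-0.0436) with the meninges covariate, and the log2 change of Dcn (0.0431) and Col6a2 (-0.0480) without the 4 arrays of lowest 99th percentile. Leaving out 1 mouse moved Dcn from -0.109 to 0.0813, Lum from -0.0672 to 0.0806, Col9a1 from -0.0942 to 0.124, Col6a2 from -0.0095 to 0.0879 and Fmod from -0.0407 to 0.339. Without 15-month replicate 6 or 2-month replicate 4 the log2 change of Sparc was 0.154 or 0.0581, without 2-month replicate 2 that of Fn1 was -0.0456, and without 2-month replicate 6 the log2 change of Col4a2 was -0.0403. The cause was not tested. No paired analysis was possible because the ages are different mice and the numbers carry no pairing. The number of arrays and the dimness of 31 of the 70 genes limit what can be seen.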

Other observations

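The 31 untested genes had mean signals of 4.98 to 106. The brightest was Ogn, the proteoglycan osteoglycin, at 123 ± 76.7 (SD, n = 14) at 15 months and 80.4 ± 53.6 (SD, n = 9) at 2 months, followed by Col13a1, a transmembrane collagen, at 105 ± 34.3 and 78.9 ± 26.2. Hspg2 was at 94.5 ± 55.0 and 74.1 ± 19.0, and Col8a1, a short-chain collagen, at 70.4 ± 44.7 and 76.8 ± 44.8. The ranges of the ages overlapped for these 4. With no filter on signal all 70 genes were tested and 0 passed in the limma fit.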
